A study of Vaccinium corymbosum with 9 samples.

Results

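Genes of tyrosine breakdown and of tocopherol (vitamin E) synthesis were followed through the ripening of blueberry fruit. The members were the rows of the deposited gene table annotated with the GO terms for tyrosine catabolic process or vitamin E biosynthetic process, leaving out rows that also carry a term for aromatic amino acid or chorismate synthesis. The rule found 73 of 93716 genes and used no expression value. Of these, 28 carried the tyrosine term, 52 the vitamin E term and 7 both, and no row had to be left out. RNA-seq libraries came from fruit of Vaccinium corymbosum 'Bluecrop', a cultivated highbush blueberry grown in an orchard with no treatment. There were 3 groups of 3 libraries each, taken from early green, color break and mature fruit, and the labels call the replicates independent biological ones. RNA came from ground fruit, so the level of a gene averages over the tissues of the fruit, and fewer cells of a type and less RNA per cell cannot be told apart in such bulk samples.

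Tyrosine breakdown starts when tyrosine aminotransferase removes the amino group to give 4-hydroxyphenylpyruvate, which 4-hydroxyphenylpyruvate dioxygenase turns into homogentisate. Homogentisate stands at a fork. Homogentisate dioxygenase, maleylacetoacetate isomerase and fumarylacetoacetase degrade it to fumarate and acetoacetate, while plastid prenyltransferases join it to a phytyl or solanesyl tail, the first committed step towards tocopherols and plastoquinone. Tocopherols are lipid-soluble antioxidants of plastid membranes, and their phytyl tail comes from geranylgeranyl reductase and from phytol that phytol kinase returns after chlorophyll is broken down.

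The 9 libraries held 52919289 to 67604266 estimated counts, and 3 counts, taken as the limit for a gene without counts, stood for 0.0444 to 0.0567 CPM. Log expression of all genes correlated at 0.734 to 0.786 between green and color break libraries, at 0.939 to 0.969 among color break libraries and at 0.939 to 0.954 between color break and mature ones. The later stages were thus weakly separated, and color break replicate 3 correlated better with mature replicates 1 and 3 (0.947 and 0.948) than with its own stage (0.939 and 0.944). Chalcone synthase, the entry enzyme of anthocyanin synthesis, summed to 32.7 ± 0.708 FPKM in green, 2625 ± 226 FPKM in color break and 2426 ± 310 FPKM in mature libraries (SD, n = 3 each), which sets green apart from the later stages but not these from each other. FPKM scales fragments by transcript length and library total. Seed storage protein genes took 4.99 ± 0.458% of all counts in green, 0.304 ± 0.0988% in color break and 0.269 ± 0.0267% in mature libraries. Light-harvesting protein genes took 0.0386 ± 0.00171% in green, 0.0243 ± 0.00197% in color break and 0.0186 ± 0.000194% in mature libraries. The log2 changes below carry edgeR's TMM scaling between libraries, whose factors were 1.13 to 1.15 in green and 0.927 to 0.945 in the later libraries, and the FPKM values do not, so a log2 change against green lies above the log2 ratio of FPKM means. Leaving TMM out shifted the median log2 change of all genes by -0.295 at color break and by -0.277 at maturity against green, and the share of called genes that rose was then 23.7% and 23.9%, instead of 38.9% and 38.6%.

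The 73 members took 0.475 ± 0.0142% of all counts in green, 0.748 ± 0.0267% in color break and 0.832 ± 0.0162% in mature libraries (SD, n = 3 each). The libraries of the later stages all lay above the green ones. Of the 73, 55 reached 1 FPKM in at least 3 libraries and were tested. In 7 of them no later library reached 1 FPKM, so they were tested through the green libraries alone, where they had to be high. VaccDscaff95-augustus-gene-0.16, with means of 0.838 FPKM in color break and 0.278 FPKM in mature libraries, is not among the 7 but also needed the green ones. Over the 3 stages, 49 of the 55 passed edgeR's quasi-likelihood F test at a Benjamini-Hochberg adjusted p under 0.05, against 59% of all genes tested. Called members had an adjusted p under 0.05 and a log2 change of at least 1 in size, and "rose" and "fell" are used for these. At color break against green, 14 of 55 members rose and 12 fell, where 8.89% of all tested genes rose and 13.9% fell. At mature against green 17 rose and 15 fell, where 9.49% of all genes rose and 15.1% fell. At mature against color break none rose and 1 fell, where 0.763% rose and 0.612% fell in the whole table. In that last comparison 16 of 55 members had an unadjusted p under 0.05 in edgeR's test, beside 10517 of all 48073 tested genes. DESeq2 called 2 falls there, in a phytol kinase and a homogentisate prenyltransferase gene.

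Among the tyrosine members all calls against green were rises, and the vitamin E members were called in both directions. Of the 24 tested members with the tyrosine term, 14 rose at color break and 17 rose at maturity against green, and none fell in either. Their median log2 change was 1.08 at color break and 1.15 at maturity, beside -0.013 and -0.015 for all tested genes. Of the 38 tested members with the vitamin E term, 6 rose and 12 fell at color break, and 6 rose and 15 fell at maturity. All 7 members tested through the green libraries alone are among these falls in both comparisons. The other 31 had 6 rises and 5 falls at color break, where 8.89% of all tested genes rose and 13.9% fell. At maturity these 31 had 6 rises and 8 falls, where 9.49% of all tested genes rose and 15.1% fell. Their falls include VaccDscaff95-augustus-gene-0.16 in both comparisons, which also needed the green libraries to be tested. All 6 that rose were tyrosine aminotransferase genes that carry both terms. The median over the vitamin E members was -0.25 at color break and 0.0011 at maturity. Without TMM scaling, 7 tyrosine members rose at color break and 9 at maturity, with no fall at the fold threshold and 1 member lower by adjusted p alone in each comparison. The vitamin E members then had 5 rises and 16 falls at color break and 4 rises and 16 falls at maturity. By adjusted p alone, 21 tyrosine members were higher and none lower at color break against green, and 13 vitamin E members were higher and 19 lower, beside 27% of all genes in each direction. At maturity against green the counts were 22 and none for the tyrosine members and 16 and 18 for the vitamin E members, beside 28.5% of all genes higher and 28.7% lower. At maturity against color break 1 member was higher and 1 lower by adjusted p alone, beside 2.75% higher and 3.34% lower in the whole table, and in the table with enzyme totals 3.35% were lower and no total passed.

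**Figure D1:**
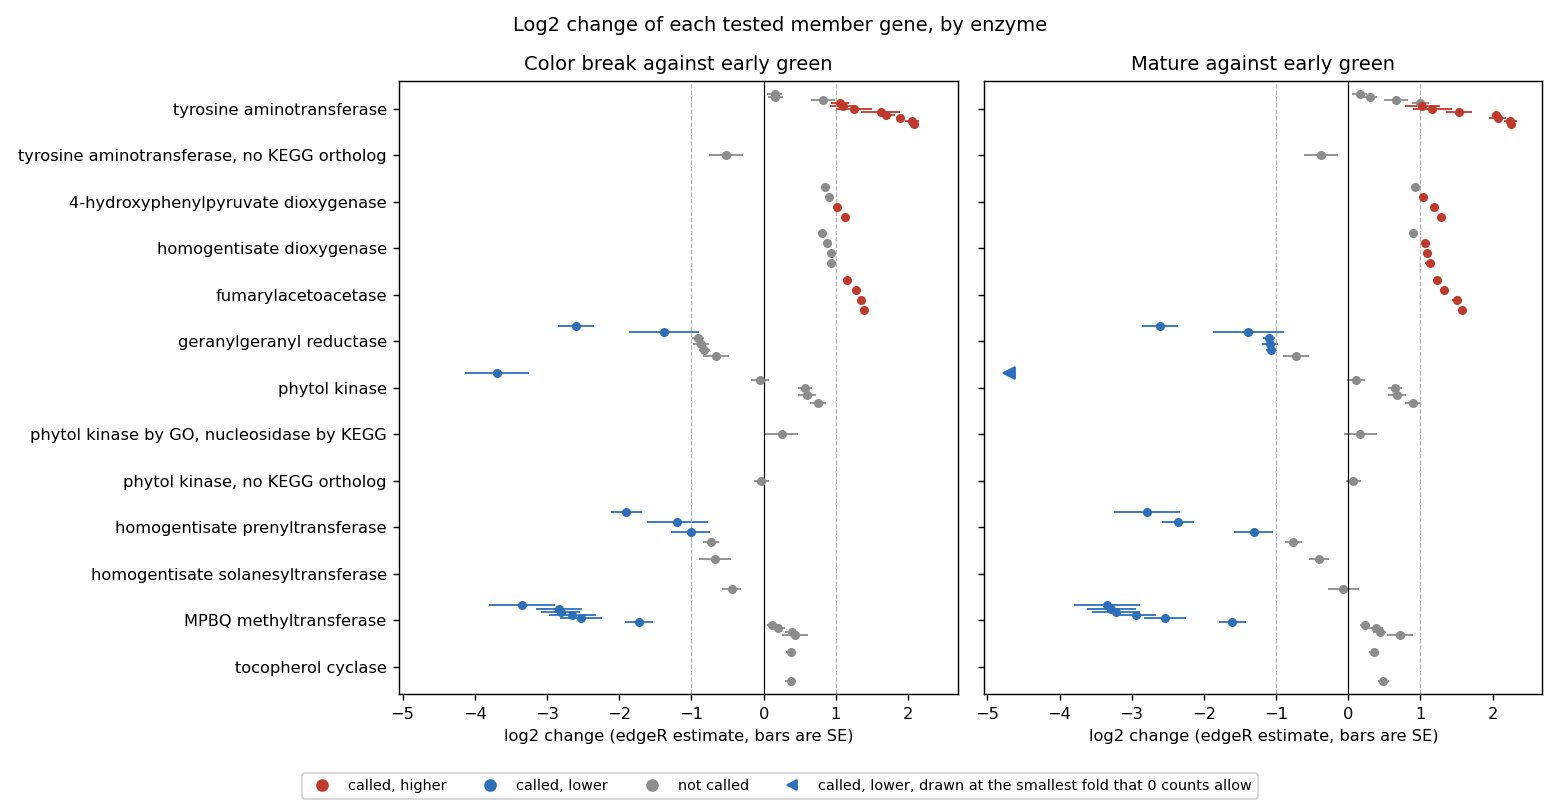
Log2 change of each of the 55 tested members (points, bars are SE) against early green at color break (left) and maturity (right), grouped by enzyme. Dashed lines mark a log2 change of 1 in size and colors the calls. The phytol kinase gene without counts in mature fruit is drawn as a triangle at the smallest fold its 0 counts allow. Tyrosine aminotransferase, the 2 dioxygenases and fumarylacetoacetase lie right of 0 apart from 1 gene without a KEGG ortholog, and geranylgeranyl reductase, the prenyltransferases and part of the MPBQ methyltransferase genes lie left of it.

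Blueberry is polyploid and most enzymes here were encoded by sets of 3 or 4 gene copies on different scaffolds that share the same best protein match. How the authors' counting divided reads among such copies is not stated, so the level of a single copy is less certain than the sum over the copies of an enzyme. The copies were therefore also summed by KEGG ortholog and the sums tested in place of the single genes in the same whole-table fit. Of 15 such enzyme totals 13 were tested. At color break against green 2 rose and 1 fell, where 8.88% of all rows rose and 13.9% fell. At maturity against green 4 rose and 2 fell, where 9.48% rose and 15.1% fell. At maturity against color break none of the totals passed in edgeR's test or in DESeq2, where 0.764% of all rows rose and 0.61% fell. Of the 13 tested totals 7 had an unadjusted p under 0.05 in edgeR's test, beside 10517 of 48073 single genes.

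Tyrosine aminotransferase made the largest rise of the enzyme totals. Its 15 genes with the KEGG ortholog summed to 184, 179 and 180 FPKM in the 3 green libraries, 441, 409 and 443 FPKM in the color break libraries and 469, 478 and 489 FPKM in the mature libraries. No later library overlapped the green ones, and color break and mature libraries did not overlap each other either. The log2 change was 1.56 ± 0.05 (SE) at color break against green (edgeR, adjusted p = 6.72e-09) and 1.70 ± 0.05 at maturity against green (adjusted p = 4.25e-09). Between maturity and color break it was 0.14, with an adjusted p of 0.111. Of the 11 tested genes, 8 rose at color break and 7 at maturity. Of all tested genes 8.89% rose and 13.9% fell at color break, and 9.49% rose and 15.1% fell at maturity. These shares also stand beside the counts by enzyme below.

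The rise was uneven among the kinds of tyrosine aminotransferase. The table gives each gene a best protein match, and 4 genes matching Vadar_027319, on scaffolds 1, 5, 8 and 10, carried most of it. Together they had 92.5, 90.5 and 89.3 FPKM in green, 311, 283 and 286 FPKM in color break and 332, 331 and 349 FPKM in mature libraries. All 4 rose at color break, by log2 changes of 1.70 to 2.09, and at maturity, by 2.04 to 2.26. They gave 50.2 ± 0.362% of the tyrosine aminotransferase FPKM in green, 68.2 ± 3.14% in color break and 70.5 ± 1.18% in mature libraries (SD, n = 3 each). The largest rise was on scaffold 8, in VaccDscaff8-augustus-gene-35.40 (bases 3498309 to 3516428, plus strand, 11 exons, coordinates as deposited). This gene had 36.4, 34.7 and 34.5 FPKM in green, 132, 120 and 119 FPKM in color break and 140, 137 and 147 FPKM in mature libraries. Its log2 change at color break was 2.09 ± 0.06 (adjusted p = 4.42e-09). The most abundant, VaccDscaff5-augustus-gene-395.33 on scaffold 5, ran close to it, with 42.7, 41.1 and 40.9 FPKM in green, 134, 125 and 122 FPKM in color break and 141, 145 and 145 FPKM in mature libraries.

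The 4 genes matching Vadar_028856 summed to 65.3 ± 1.43 FPKM in green, 94.4 ± 4.99 FPKM in color break and 105 ± 3.36 FPKM in mature libraries. Those on scaffolds 5 and 8 rose at color break, with log2 changes of 1.10 and 1.06, and those on scaffolds 1 and 10 had 0.16 and 0.15 and did not pass. Without TMM scaling neither of the first pair reached a log2 change of 1, and the other pair lay below 0. Each of these genes has a neighbour that matches Vadar_034557, 6.3 to 10.9 kb away on the same scaffold with no gene between. Those 4 neighbours were nearly silent at 1.56 ± 0.0131 FPKM in green, 0.977 ± 0.145 FPKM in color break and 0.908 ± 0.0675 FPKM in mature libraries, summed over the 4, and were not tested.

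A further kind, 3 genes matching Vadar_017642 on scaffolds 6, 37 and 38, summed to 23.4 ± 0.0890 FPKM in green, 41.8 ± 12.2 FPKM in color break and 35.4 ± 2.12 FPKM in mature libraries. The wide spread at color break came from replicate 3, with 55.8 FPKM against 35.6 and 34.0 FPKM in the others. Color break replicate 3 was also the color break library with the most seed storage counts, 0.418% of its total, and the part of seed in this value was not tested. At color break 2 of the 3 genes rose, and without that library their log2 changes were 1.31 and 1.02 and still passed. Without TMM scaling they were 1.33 and 0.96, the second under the fold threshold. One further tyrosine aminotransferase gene without a KEGG ortholog, VaccDscaff46-augustus-gene-1.25 on scaffold 46, stayed between 0.926 and 2.12 FPKM and did not pass, with a log2 change of -0.52 at color break (adjusted p = 0.0865). Among the 15 genes of the main group, 8 are also annotated as nicotianamine aminotransferase, an enzyme of iron-chelator synthesis in grasses, so the substrate of each gene is not settled by the table.

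**Figure D2:**
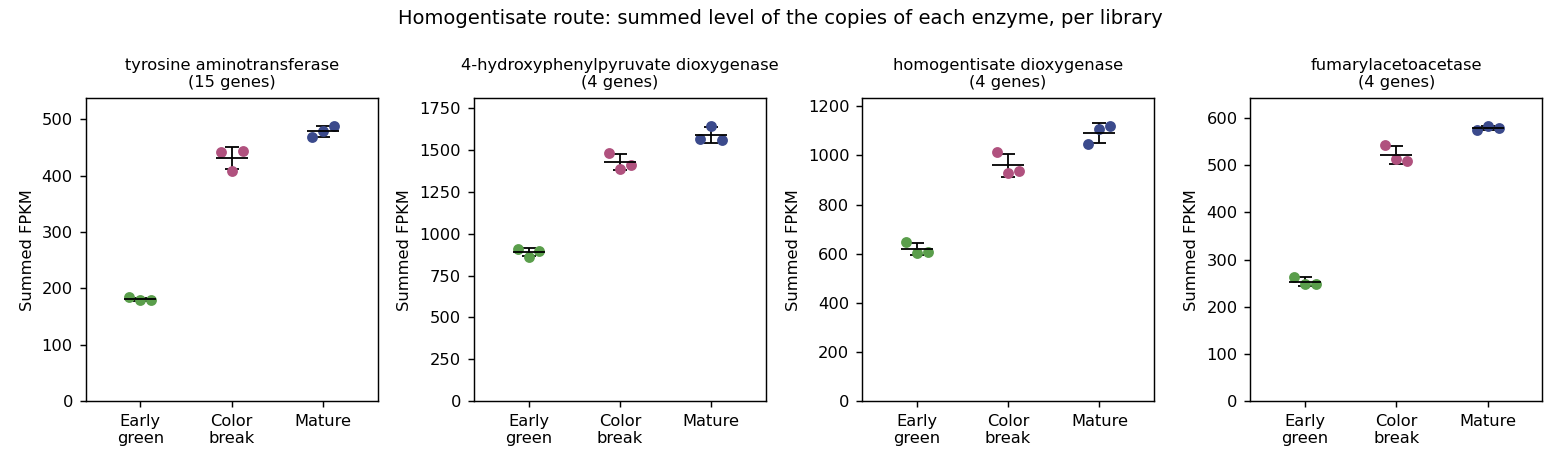
Summed FPKM of all copies of 4 enzymes of the homogentisate route in each library (points), with the mean and SD of the 3 libraries per stage (bars), for early green, color break and mature fruit. In all 4 panels every color break and mature library lies above every green library.

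4-Hydroxyphenylpyruvate dioxygenase, which makes homogentisate, was the most abundant enzyme of the set. Its 4 copies, on scaffolds 7, 16, 18 and 31, summed to 908, 861 and 899 FPKM in green, 1481, 1388 and 1410 FPKM in color break and 1561, 1644 and 1557 FPKM in mature libraries. The green libraries lay apart from all later ones. In edgeR's test the log2 change was 0.96 ± 0.05 at color break against green (adjusted p = 1.60e-07), just short of the fold threshold, and 1.09 ± 0.05 at maturity against green (adjusted p = 6.52e-08), which passed it. VaccDscaff16-processed-gene-316.11 (scaffold 16, bases 31601736 to 31606294, plus strand, 5 exons) was its most abundant copy, with 353, 328 and 339 FPKM in green, 590, 543 and 577 FPKM in color break and 632, 673 and 650 FPKM in mature libraries. By mean FPKM it ranked 115 of 93716 genes in green, 64 in color break and 51 in mature fruit. The largest change among the copies was that of VaccDscaff7-augustus-gene-94.24 on scaffold 7, with 1.13 ± 0.06 at color break and 1.28 ± 0.06 at maturity. The 4 copies ranged from 0.85 to 1.13 at color break, so they moved alike although their levels differed.

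Homogentisate dioxygenase, which opens the ring of homogentisate and so commits it to breakdown, showed nearly the same course. Its 4 copies on scaffolds 1, 5, 8 and 10 summed to 646, 602 and 606 FPKM in green, 1013, 926 and 936 FPKM in color break and 1045, 1106 and 1121 FPKM in mature libraries. The 3 stages did not overlap. As a log2 change this was 0.90 ± 0.05 at color break against green (adjusted p = 5.56e-07), under the fold threshold, and 1.07 ± 0.05 at maturity (adjusted p = 1.72e-07). All 4 copies lay between 0.80 and 0.94 at color break, and 3 of them rose at maturity. VaccDscaff10-processed-gene-28.12 on scaffold 10 was the most abundant, at 223, 207 and 207 FPKM in green, 351, 322 and 331 FPKM in color break and 364, 388 and 387 FPKM in mature libraries. At maturity the totals of both dioxygenases crossed the fold threshold by less than 0.1, and they fell short of it without TMM scaling, at 0.82 for 4-hydroxyphenylpyruvate dioxygenase and 0.79 for homogentisate dioxygenase, with adjusted p of 3.06e-07 and 1.10e-06.

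Fumarylacetoacetase, the last enzyme of the route, rose in all of its 4 genes in both comparisons with green. The total was 264, 248 and 248 FPKM in green, 543, 513 and 508 FPKM in color break and 574, 584 and 578 FPKM in mature libraries. The stages did not overlap. Its log2 change was 1.32 ± 0.05 at color break (adjusted p = 1.96e-08) and 1.45 ± 0.05 at maturity (adjusted p = 1.06e-08). VaccDscaff217-processed-gene-1.3, the most abundant copy (scaffold 217, bases 134489 to 142732, plus strand, 17 exons), had 92.5, 87.6 and 91.4 FPKM in green, 200, 186 and 189 FPKM in color break and 224, 226 and 227 FPKM in mature libraries. It was also the one member that was higher at maturity than at color break by adjusted p alone, with a log2 change of 0.22 (adjusted p = 0.0334). VaccDscaff15-snap-gene-208.30 on scaffold 15 changed most at color break, by 1.40 ± 0.06.

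The gene between these in the route, maleylacetoacetate isomerase, was found by KEGG ortholog outside the members. None of its 12 tested genes rose, 3 fell at color break and 4 fell at maturity against green, where 13.9% and 15.1% of all genes fell. VaccDscaff22-snap-gene-37.48, which fell in both, was tested through the green libraries alone, with at most 0.367 FPKM in any later library. By adjusted p alone 3 genes were higher and 3 lower at color break, and 3 were higher and 6 lower at maturity. The sum over its 14 genes was 148 ± 1.28 FPKM in green, 161 ± 4.87 FPKM in color break and 139 ± 9.51 FPKM in mature libraries. Its most abundant gene, VaccDscaff25-snap-gene-347.34, had 46.8 ± 1.18 FPKM in green, 68.6 ± 0.936 FPKM in color break and 58.0 ± 2.22 FPKM in mature libraries, a log2 change of 0.82 at color break and under the fold threshold. The enzyme belongs to the glutathione transferase family, and the table does not show which of these genes act on maleylacetoacetate.

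On scaffolds 1, 5, 8 and 10 the homogentisate dioxygenase gene and the Vadar_027319 tyrosine aminotransferase gene lie near each other. The gap between them was 177.2 kb on scaffold 1, 121.5 kb on scaffold 5, 140.3 kb on scaffold 8 and 131.5 kb on scaffold 10. In all 4 cases both genes are on the same strand and the aminotransferase lies before the start of the dioxygenase. Between them stand 9 to 14 other genes, 44 over the 4 scaffolds, of which 34 were tested. Most of these are copies of each other, and the 34 fall into 10 kinds by best protein match, plus 1 gene without a match. At color break a single kind rose, Vadar_026487, in all 4 of its copies, 1 on each scaffold, with log2 changes of 1.22 to 1.83, and no gene between fell. These 4 rises among 34 tested genes stand beside 8.89% of all tested genes that rose and 13.9% that fell. The genes between had mean FPKM of up to 40.8 over the 9 libraries. Within libraries the ratio of summed FPKM of these aminotransferase genes to homogentisate dioxygenase lay between 0.143 and 0.150 in green, between 0.306 and 0.307 in color break and between 0.299 and 0.318 in mature fruit.

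**Figure D3:**
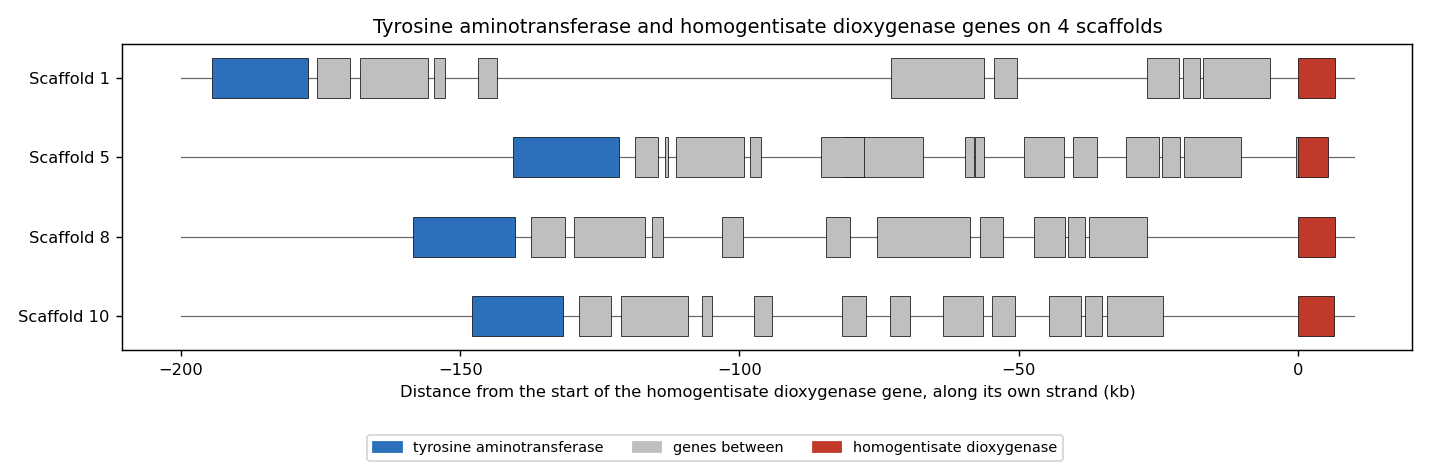
Gene models between the Vadar_027319 tyrosine aminotransferase gene (blue) and the homogentisate dioxygenase gene (red) on 4 scaffolds, to scale, as distance in kb from the start of the dioxygenase along its own strand. The aminotransferase ends 121.5 to 177.2 kb before the dioxygenase on each scaffold, with 9 to 14 genes between (grey).

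On the tocopherol side, the total of geranylgeranyl reductase, which makes phytyl diphosphate and the phytyl chain of chlorophyll, was lower in the later stages. All of its 10 members also carry the term for chlorophyll synthesis. They summed to 123, 117 and 122 FPKM in green, 54.5, 59.2 and 48.5 FPKM in color break and 49.0, 47.9 and 45.4 FPKM in mature libraries. The green libraries lay above all later ones, and color break and mature libraries overlapped. Its log2 change came to -0.88 ± 0.08 at color break against green (adjusted p = 6.97e-06), under the fold threshold, and -1.09 ± 0.08 at maturity (adjusted p = 1.50e-06), which passed. Most of the level came from 4 genes matching Vadar_000836, led by VaccDscaff35-snap-gene-263.41 on scaffold 35, with 53.1, 49.9 and 52.7 FPKM in green, 24.6, 26.1 and 22.3 FPKM in color break and 21.6, 21.3 and 19.6 FPKM in mature libraries. A second group of 6 genes matching Vadar_008178 summed to 6.02 ± 0.700 FPKM in green, 1.25 ± 0.506 FPKM in color break and 1.35 ± 0.166 FPKM in mature libraries. Both of its tested genes were tested through the green libraries alone, where they had to be high, and their called falls are given as a description. At color break VaccDscaff103-processed-gene-3.5 had a log2 change of -2.60 ± 0.25. VaccDscaff24-processed-gene-207.20 had one of -1.38, and its call was lost in 11 of 18 alternative analyses. Of the light-harvesting genes 8 of 14 fell and none rose at color break, but 3 were higher by adjusted p alone, among them the most abundant, VaccDscaff42-augustus-gene-52.34, with 57.5 ± 7.07 FPKM in color break and 41.3 ± 2.82 FPKM in green libraries (log2 change 0.75, adjusted p = 6.44e-05). In the same comparison 8.89% of all tested genes rose and 13.9% fell, and of the seed storage genes 62 of 82 tested fell and 4 rose. Their part in the falls of members was not tested.

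Phytol kinase, which returns free phytol to the pathway, was not called in 4 of its 5 genes. The total was 41.2, 38.8 and 39.8 FPKM in green, 41.8, 35.2 and 46.7 FPKM in color break and 41.4, 43.1 and 49.9 FPKM in mature libraries. The stages overlapped except that every mature library was above every green one. The log2 change was 0.36 ± 0.10 at color break (adjusted p = 0.0130) and 0.46 ± 0.10 at maturity (adjusted p = 0.00306), both under the fold threshold, and without TMM scaling they were 0.06 and 0.18 with adjusted p of 0.624 and 0.137. VaccDscaff28-snap-gene-283.62 on scaffold 28 was the most abundant copy, with 13.9, 13.6 and 13.9 FPKM in green, 17.7, 14.5 and 18.7 FPKM in color break and 16.7, 17.7 and 19.9 FPKM in mature libraries. The exception was VaccDscaff20-augustus-gene-75.27, a model of 4 exons that ends 2.9 kb before another phytol kinase gene on scaffold 20, with no gene between. It was tested through the green libraries alone and had 1.23, 1.04 and 1.34 FPKM in green and 0.104, 0.0304 and 0.0645 FPKM in color break libraries, and no count in any mature library. In mature fruit it was at least 25.9-fold lower than in green, with 3 counts per library as the limit. Its call at mature against color break, the only one among members there, rested on 3 to 7 counts per color break library and was lost in 10 of 18 alternatives, and its 0 counts put it at least 1.64-fold lower there. A gene annotated as phytol kinase by GO but as a nucleosidase by KEGG (VaccDscaff19-processed-gene-71.1) and one without a KEGG ortholog (VaccDscaff515-augustus-gene-0.18) did not pass, with log2 changes of 0.25 and -0.03 at color break.

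Homogentisate prenyltransferase, which joins the phytyl tail to homogentisate, showed the largest fall of the enzyme totals. Its 6 genes summed to 28.1, 26.2 and 26.8 FPKM in green, 10.1, 9.40 and 8.31 FPKM in color break and 8.43, 7.13 and 7.35 FPKM in mature libraries. Green libraries lay far above the others, and color break and mature libraries overlapped. This gave a log2 change of -1.25 ± 0.09 at color break against green (adjusted p = 1.89e-06) and -1.54 ± 0.09 at maturity (adjusted p = 4.46e-07). Most of the level came from 4 copies matching Vadar_021183, all annotated as homogentisate phytyltransferase, of which 3 fell in both comparisons. VaccDscaff308-augustus-gene-0.20 (scaffold 308, bases 89853 to 97450, plus strand, 13 exons) had 10.1, 9.13 and 8.94 FPKM in green, 2.77, 2.11 and 1.37 FPKM in color break and 1.72, 1.41 and 1.46 FPKM in mature libraries. Its log2 change was -1.90 ± 0.22 at color break and -2.36 ± 0.22 at maturity. The copy on scaffold 55, VaccDscaff55-augustus-gene-7.24, was lower by less, with 7.40, 7.20 and 7.45 FPKM in green, 3.22, 3.54 and 4.25 FPKM in color break and 3.26, 3.83 and 3.83 FPKM in mature libraries, a log2 change of -0.73 at color break. VaccDscaff95-augustus-gene-0.16 on scaffold 95 had the largest fall at maturity, with a log2 change of -2.79 ± 0.46, and its call at color break was lost in 11 of 18 alternatives. Its means were 2.33 FPKM in green, 0.838 FPKM in color break and 0.278 FPKM in mature libraries. It thus needed the green libraries to be tested, and its falls are given as a description. The other pair of genes, matching Vadar_027991 and annotated as homogentisate geranylgeranyl transferase, the enzyme of tocotrienol synthesis, summed to 1.51 ± 0.124 FPKM in green, 0.0167 ± 0.0290 FPKM in color break and 0.0140 ± 0.0242 FPKM in mature libraries and was not tested.

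Homogentisate solanesyltransferase, by KEGG the entry to plastoquinone, was low throughout, although its GO text names phytyltransferase activity. Its 4 genes summed to 9.49, 10.4 and 8.82 FPKM in green, 5.27, 5.88 and 5.36 FPKM in color break and 6.46, 6.47 and 7.16 FPKM in mature libraries. The green libraries were above all others and the mature ones above the color break ones. The test gave a log2 change of -0.52 ± 0.09 at color break (adjusted p = 0.000791) and -0.25 ± 0.09 at maturity (adjusted p = 0.0384), both under the fold threshold. VaccDscaff29-augustus-gene-348.55 on scaffold 29 gave the largest part, 5.78, 5.81 and 4.50 FPKM in green, 3.06, 3.69 and 3.01 FPKM in color break and 3.27, 3.29 and 3.64 FPKM in mature libraries.

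**Figure D4:**
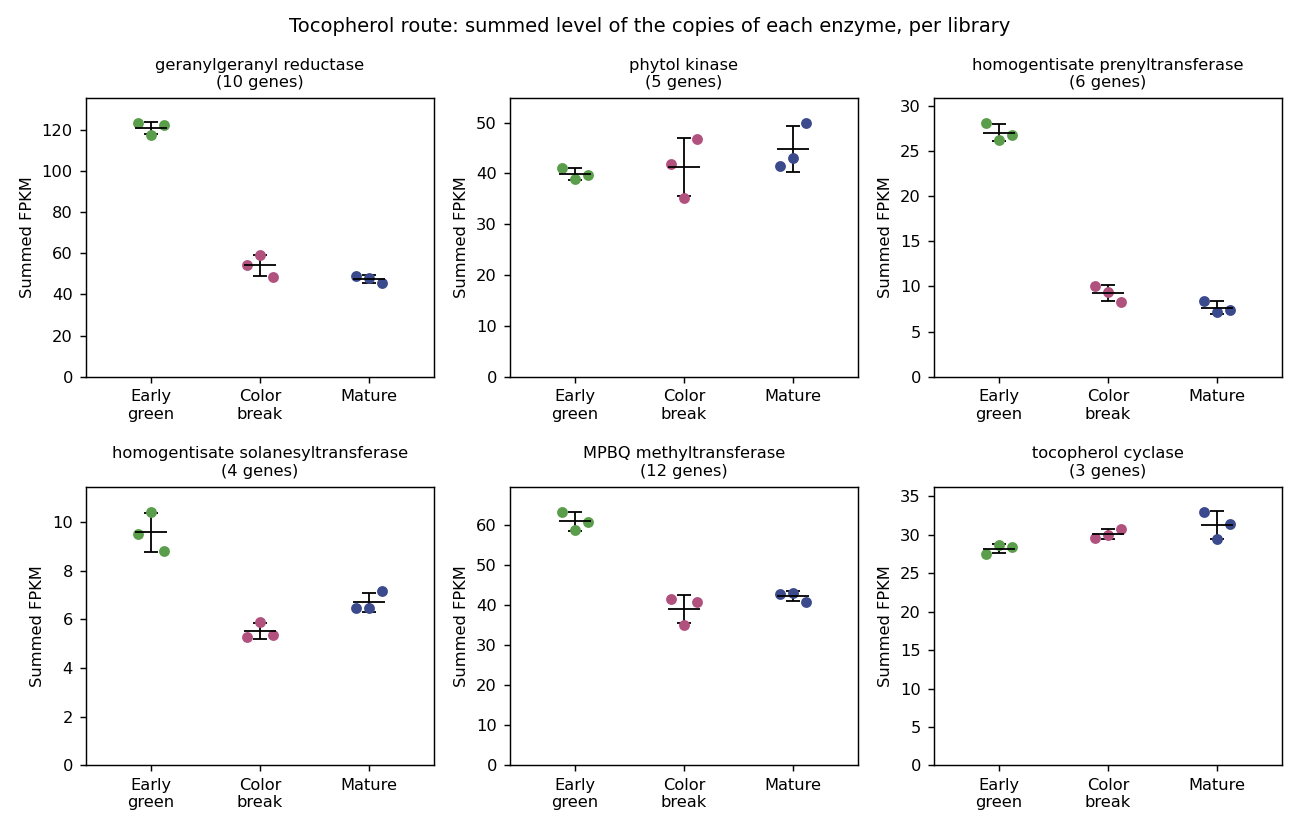
Summed FPKM of all copies of 6 enzymes of the tocopherol route in each library (points), with the mean and SD of the 3 libraries per stage (bars), for early green, color break and mature fruit. Geranylgeranyl reductase, both prenyltransferases and MPBQ methyltransferase have every green library above every later one, while phytol kinase and tocopherol cyclase do not.

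The methyltransferase that acts on the prenylated quinols of both tocopherol and plastoquinone synthesis (MPBQ methyltransferase) divided by copy. Its 12 genes summed to 63.3, 58.7 and 60.9 FPKM in green, 41.6, 35.1 and 40.8 FPKM in color break and 42.9, 43.0 and 40.8 FPKM in mature libraries. The total had a log2 change of -0.32 ± 0.07 at color break against green (adjusted p = 0.00344) and -0.23 ± 0.07 at maturity (adjusted p = 0.0184), under the fold threshold. Within it, 4 genes matching Vadar_032002 had 37.8, 33.7 and 34.9 FPKM in green, 37.8, 32.2 and 36.4 FPKM in color break and 38.5, 40.0 and 37.7 FPKM in mature libraries, and none of them was called. Their log2 changes were 0.12 to 0.43 at color break and 0.23 to 0.71 at maturity. By adjusted p alone 1 of them was higher at color break and all 4 at maturity. Without TMM scaling none of the 4 passed by adjusted p in either comparison. Another 4 genes, matching Vadar_011447, had 17.4, 17.3 and 18.3 FPKM in green, 2.04, 1.69 and 2.24 FPKM in color break and 2.37, 1.31 and 1.40 FPKM in mature libraries. Of these, 3 were tested through the green libraries alone, where they had to be high to be tested, and their called falls are given as a description. The other, VaccDscaff19-snap-gene-375.29 on scaffold 19, had 7.86, 8.52 and 7.64 FPKM in green, 1.13, 0.657 and 1.04 FPKM in color break and 1.25, 0.743 and 0.618 FPKM in mature libraries, and fell by 2.81 ± 0.27 on the log2 scale at color break (adjusted p = 1.87e-05) and by 2.94 ± 0.27 at maturity (adjusted p = 1.34e-05). It was named after its values were seen.

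VaccDscaff11-augustus-gene-373.21 (scaffold 11, bases 37307471 to 37315657, plus strand, 6 exons), 1 of the 3 tested through green alone, was at 3.48, 2.11 and 3.40 FPKM in green, 0.168, 0.126 and 0.418 FPKM in color break and 0.281, 0.148 and 0.300 FPKM in mature libraries. VaccDscaff43-augustus-gene-29.20 on scaffold 43, the most abundant gene of the enzyme, had 15.4, 14.5 and 14.2 FPKM in green, 17.5, 14.4 and 15.9 FPKM in color break and 16.4, 17.8 and 15.7 FPKM in mature libraries. Both tested genes of the remaining, methyltransferase-like kind fell as well, 1 of them also tested through green alone. In share, the Vadar_032002 copies gave 58.2 ± 1.28% of the enzyme's FPKM in green, 90.7 ± 1.27% in color break and 91.7 ± 1.72% in mature libraries (SD, n = 3 each). These shares are taken within a library and so do not depend on scaling between libraries. The later libraries all lay above the green ones, and the exact permutation test between color break and green gave p = 0.1, two-sided, which is the smallest that 3 against 3 libraries allow. This separation follows from the levels of the kinds given above, so the test could not come out otherwise and no conclusion is drawn from it.

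**Figure D5:**
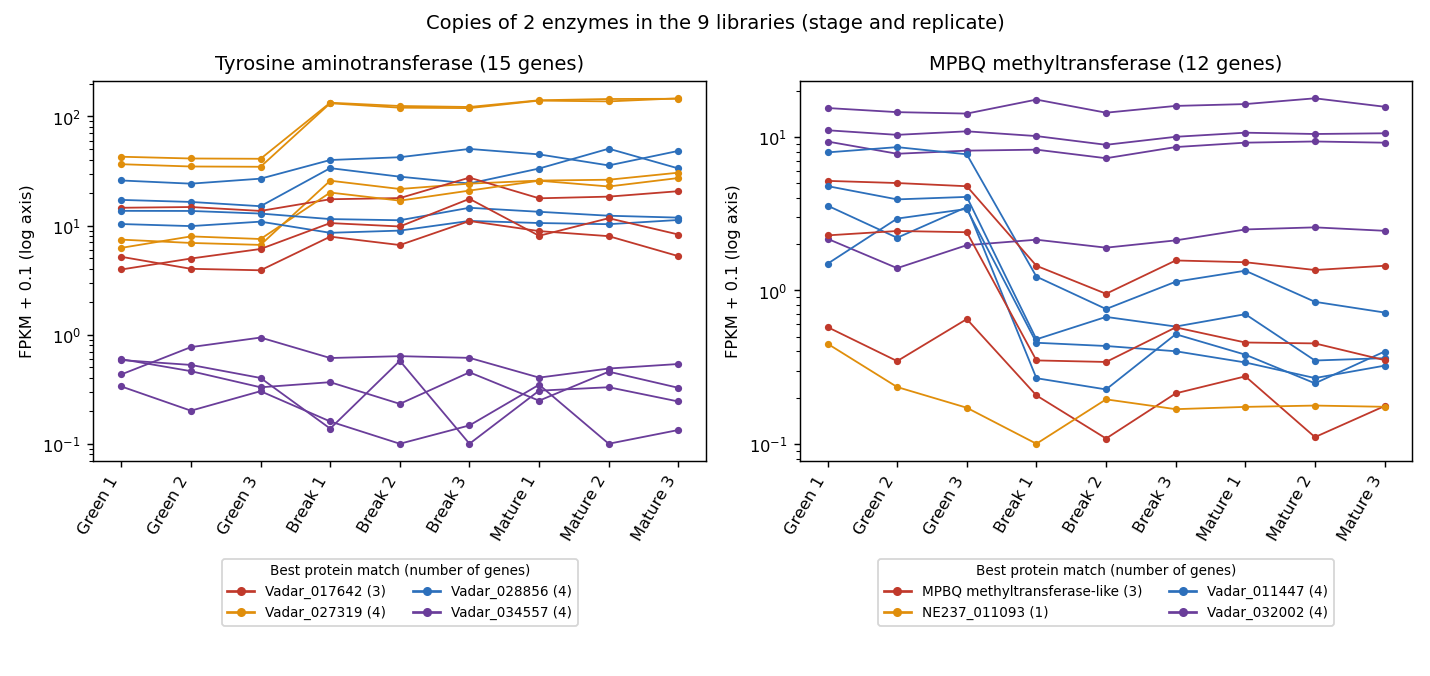
FPKM + 0.1 (log axis) of each tyrosine aminotransferase gene (left, 15 genes) and each MPBQ methyltransferase gene (right, 12 genes) in the 9 libraries. Lines join the values of 1 gene and colors give its best protein match. On the left the Vadar_027319 genes step up after green and the Vadar_034557 genes stay under 1 FPKM. On the right the Vadar_011447 genes step down while the Vadar_032002 genes change less.

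Tocopherol cyclase, which closes the chromanol ring and is encoded by a single kind of gene here, was nearly level. Its 3 genes summed to 27.5, 28.7 and 28.4 FPKM in green, 29.5, 30.0 and 30.8 FPKM in color break and 33.0, 29.4 and 31.5 FPKM in mature libraries. Later libraries lay slightly above the green ones. The log2 change was 0.37 ± 0.06 at color break (adjusted p = 0.000329) and 0.40 ± 0.06 at maturity (adjusted p = 0.000164), under the fold threshold, and without TMM scaling 0.07 and 0.13 with adjusted p of 0.285 and 0.0756. VaccDscaff20-snap-gene-250.31 on scaffold 20 and VaccDscaff28-snap-gene-107.27 on scaffold 28 carried nearly all of it, and VaccDscaff44-snap-gene-110.35 on scaffold 44 stayed under 0.326 FPKM. The final tocopherol enzyme, gamma-tocopherol methyltransferase, lies outside the members. Of its 4 tested genes none rose, 1 fell at color break and 2 fell at maturity against green, where 13.9% and 15.1% of all genes fell. VaccDscaff20-augustus-gene-28.40, which fell in both comparisons, was tested through the green libraries alone, with at most 0.146 FPKM in any later library. The most abundant gene, VaccDscaff20-augustus-gene-0.22, was not called, with a log2 change of -0.16 at color break (edgeR, adjusted p = 0.189). The 8 genes summed to 20.3 ± 0.907 FPKM in green, 10.05 ± 0.254 FPKM in color break and 9.93 ± 0.567 FPKM in mature libraries.

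Homogentisate breakdown and its prenylation can be set against each other within a library, which removes any scaling between libraries. The prenylation side is given here by homogentisate prenyltransferase, the enzyme total with the largest fall. Homogentisate solanesyltransferase, on the same side of the fork, is not in these ratios and changed by less, with log2 changes of -0.52 at color break and -0.25 at maturity. Summed FPKM of homogentisate dioxygenase was at least 22.6 and at most 23.0 times that of homogentisate prenyltransferase in green libraries, between 98.5 and 113 times in color break and between 124 and 155 times in mature ones. For 4-hydroxyphenylpyruvate dioxygenase, which acts before the fork, the ratio to the prenyltransferase lay between 32.3 and 33.5 in green, between 147 and 170 in color break and between 185 and 230 in mature ones. No ratio of a later library overlapped the green range. For each ratio the exact permutation test between color break and green gave p = 0.1, two-sided, the smallest this design allows. The enzymes were chosen after their changes were seen, which fixed this outcome beforehand, so the ratios are given as a description. These are ratios of transcript levels and not of enzyme activity.

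The 18 members that were not tested never exceeded 1.23 FPKM in any library, and 16 of them had a higher mean in green than in mature fruit. They include 3 short gene models without a KEGG ortholog on scaffolds 35 and 36, annotated as homogentisate phytyl or geranylgeranyl transferase, which were listed at 0 in most libraries. The 2 Vadar_027991 prenyltransferase genes, VaccDscaff20-augustus-gene-301.16 and VaccDscaff44-augustus-gene-66.24, were chosen for mention after their values were seen. The first had 1.23, 0.845 and 1.16 FPKM in green libraries. The second had no count in any color break library and was there at least 14.7-fold lower than in green.

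Lists of neighbouring pathways, taken by KEGG ortholog or GO term, give the surroundings of these members. They are read against 8.89% of all genes rising and 13.9% falling at color break, and 9.49% and 15.1% at maturity, both against green. In the synthesis of aromatic amino acids, which supplies tyrosine, 36 of 57 tested genes rose and 1 fell at color break, and 36 rose and 3 fell at maturity. Its most abundant gene, VaccDscaff18-processed-gene-70.25, had 68.1 ± 1.85 FPKM in green, 793 ± 63.0 FPKM in color break and 643 ± 69.8 FPKM in mature libraries. Polyphenol oxidase, which oxidises phenolics, rose in 5 and fell in 1 of 7 tested genes at color break. In the plastid MEP route, the source of the geranylgeranyl unit, 4 of 38 rose and 7 fell at color break, and none of 5 tested geranylgeranyl diphosphate synthase genes was called. In chlorophyll breakdown, the source of free phytol, 3 of 45 rose and 11 fell. Ascorbate synthesis, which makes another antioxidant, had 2 of 33 rising and 4 falling, and none of the 10 tested plastoquinone genes was called.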

How the data were processed

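Blueberry fruit RNA-seq of 9 libraries was read from 1 table of 93716 genes, in which the authors deposited FPKM, estimated counts and GO, KEGG and protein annotation. Per the submitters' processing notes, fastp, HISAT2, StringTie and DESeq2 were used, and tool versions and a genome build were not given in the sources used here. In the labels the library protocol speaks of an alkali-stressed Populus hybrid, but the organism given is blueberry. The deposited estimated counts are whole numbers, and 99.8% to 99.89% of genes per library lie within 1 of FPKM times length times a constant, so they derive from coverage estimates. Groups follow the stage labels. Whether libraries of a stage came from separate plants is not stated, so p-values measure the spread between these libraries.

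The test covered 48073 genes that reached 1 FPKM in at least 3 libraries and used edgeR 4.0.16 in R 4.3.3 (TMM, robust quasi-likelihood, stage as the only term, all 9 libraries in the fit). P-values were Benjamini-Hochberg adjusted over all tested genes. Calls needed an adjusted p under 0.05 and a log2 change of at least 1 in size. Standard errors are the log2 change divided by the square root of F. For enzyme totals, members of 1 KEGG ortholog were summed, put in place of their genes and refitted with the whole table. The model was tested on simulated data. A gene without counts was set to 3 counts per library for its smallest fold, which covers counting error only. Named genes are the most abundant member of each enzyme, the largest called rise and fall per enzyme and comparison with libraries that do not overlap, and all members of enzymes with 3 or fewer. Members and lists were chosen with earlier results of these data known. Alternatives were median-of-ratios scaling, a filter on mean FPKM of at least 5, no filter, DESeq2 1.42.0, a replicate block, only the stages compared, each library left out, limma 3.58.1 on log2(FPKM + 1) and log2(FPKM + 0.1), and no fold threshold. Library-size-only scaling was added after the data were seen.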

Additional observations from a re-analysis of the deposited data

How the results depend on the processing

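No alternative turned the direction of a called change round. With a mean FPKM of at least 5, called members numbered 12 (9 rose, 3 fell) at color break against green, 12 (9 rose, 3 fell) at maturity against green and 0 at maturity against color break, and 26 changed over the stages, since only part of the members then remained to be tested. Without a fold threshold 46 (27 rose, 19 fell), 49 (31 rose, 18 fell) and 2 (1 rose, 1 fell) members passed in those comparisons, and 10 enzyme totals (6 higher, 4 lower) in each comparison with green. At color break against green 7 members rose with library-size-only scaling and with limma on log2(FPKM + 1), and 8 with a pseudocount of 0.1. At maturity against green 9 rose under each of these. Under the same 3 and a mean FPKM of at least 5, enzyme totals that fell at color break numbered 2, geranylgeranyl reductase having crossed the threshold, and those that rose at maturity numbered 2, both dioxygenases having dropped under it. Without a filter 5 totals were called at color break (4 rose, 1 fell), and 1 fell at maturity. The single fall of a member at maturity against color break became 0 with limma at either pseudocount and with only those stages fitted, 2 with DESeq2, and 0 to 2 when 1 library was left out, with 2 when color break replicate 3 was left out. A replicate block also gave 0 there and changed no other count by over 1.5 times, and same-numbered libraries deviated together little (correlations of -0.0302 to 0.223), so the numbers were not taken to pair the samples. The totals of tyrosine aminotransferase, fumarylacetoacetase and homogentisate prenyltransferase were called against green under every alternative run. Members near 1 FPKM rest on few counts, and a change there is limited by depth.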
